A study of Mus musculus with 2 samples.

Results

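A set of 9 genes that steer blood cells into, within and out of the spleen were followed through every cell group of 2 spleen libraries: the chemokine receptors Ccr7, Cxcr5, Cxcr4, Cxcr3, Ccr2, Cx3cr1 and Cxcr2, the sphingosine 1-phosphate receptor S1pr1 and the integrin subunit Itga4. They were chosen by name, and each symbol matched 1 row, so that 9 of the 32285 genes in the count matrices are described. The libraries came from C57BL/6 mice made anaemic over 1 month, with a treatment every 3 days. The first library held live spleen cells after repeated injection of phenylhydrazine (PHZ), a compound that destroys red cells, and the other after repeated bleeding. Anaemia was therefore common to both, no untreated spleen is analysed here, and the number, age and sex of the mice are not given in the sources used here. With 1 library per treatment, no difference between PHZ and bleeding has a replicate check, so none was tested and every interval below covers counting error only.

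Chemokine receptors are G protein-coupled receptors that draw a cell up a gradient of their ligand. In the spleen, ligands of Ccr7 mark the T cell zone, the ligand of Cxcr5 marks the follicle, and the ligand of Cxcr4 is made by stromal cells of marrow and red pulp. S1pr1 senses the sphingosine 1-phosphate of blood and directs egress, and Itga4 pairs with Itgb1 or Itgb7 to bind Vcam1 and fibronectin, which hold progenitors and macrophages together in erythroblastic islands.

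All 9 receptors were detected in both libraries. Among 6113 cells of the PHZ library and 8954 of the bleeding library, Itga4 was the most widely found, with a UMI (a counted transcript molecule) in 51.9% and 62.2% of cells. Cxcr3 had a UMI in 1.91% and 4.04%, Cxcr2 in 4.35% and 1.37%, and Ccr2 in 4.66% and 3.55%. The makeup of the libraries differed as well, with 281 neutrophils and 525 T cells in the PHZ library and 121 and 2119 in the bleeding library, as did their depth; the part of either in these shares was not tested. Levels below are given within cell groups, as CPM, the UMIs of a gene scaled to the group's total of UMIs that are not of haemoglobin, with exact 95% Poisson intervals. A 3′ count does not allow a comparison of levels between genes, so each receptor is compared with itself across groups.

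Groups were clusters that were named from marker genes, with the receptors themselves left out of the clustering. Each name means that the cells resemble that type: a "follicular" group is follicular-like B cells, and so on. The summed markers of each subset were highest in the group named for them, except in the early erythroid progenitors, whose list summed to 2916 and 2911 CPM there and to as much as 4408 and 4598 CPM in another erythroid group. The early progenitors were the erythroid group highest in Car1, at 1256 CPM in its larger cluster in the PHZ library and 1308 after bleeding. That cluster had Myb at 69.3 and 103 and Kit at 23.3 and 33.7 CPM. Cd34 was at 0 CPM in that cluster in both libraries. The median cell had 12189 UMIs after PHZ and 8034 after bleeding, and 36 barcodes of at least 1000 UMIs occurred in both.

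**Figure D1:**
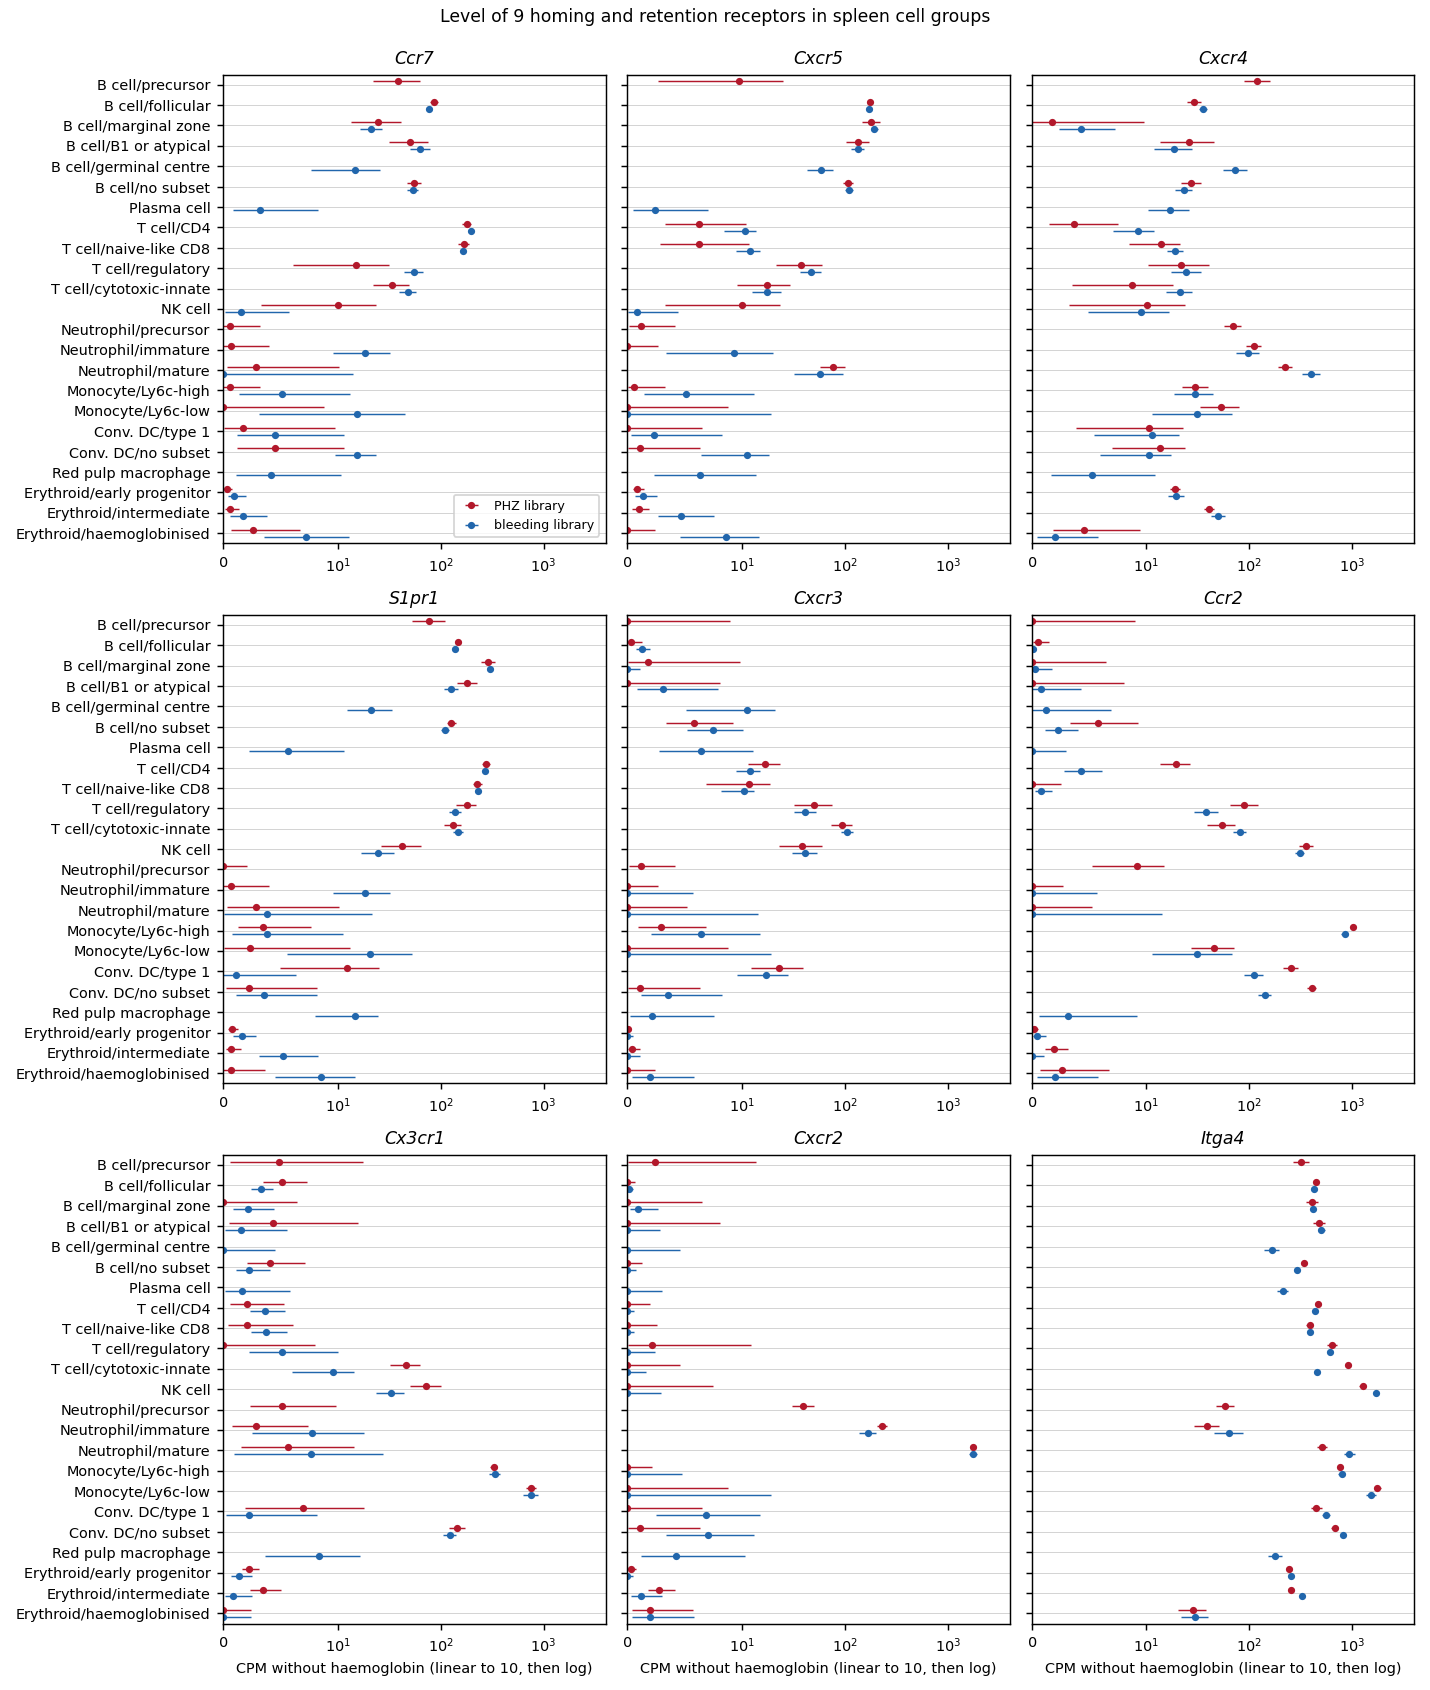
Level of each receptor by cell group, in CPM without haemoglobin (axis linear to 10, then logarithmic), for the PHZ library (red) and the bleeding library (blue), with 95% Poisson intervals for counting error. Groups with fewer than 20 cells in a library have no point. Cxcr2 is high in neutrophils only among the groups drawn. Ccr2 is high in Ly6c-high monocytes, NK cells and conventional dendritic cells, and Cx3cr1 is highest in monocytes. Ccr7 and S1pr1 are high in lymphocytes, and Itga4 in nearly every group.

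Ccr7 (chromosome 11, 99144196 to 99155077, minus strand; positions here are GRCm38) is the receptor that brings naive T cells and migrating dendritic cells into the T cell zone. It was highest in a small group of dendritic cells with migratory markers, at 712 CPM (590 to 852) in 11 cells of the PHZ library and 547 CPM (456 to 652) in 18 cells of the bleeding library. In that group 9 of 11 and 17 of 18 cells had a Ccr7 UMI, while the other unnamed conventional dendritic cells had 4.54 and 15.5 CPM. CD4 T cells came next, with 179 CPM (160 to 199) and 195 CPM (185 to 206). Naive-like CD8 T cells had 167 and 166 CPM, with intervals that overlapped those of CD4 cells in the PHZ library but not in the bleeding library. Follicular B cells had 87.1 and 77.1 CPM, marginal zone B cells 24.6 and 21.2 CPM, and the germinal centre group, seen in number only after bleeding, 14.8 CPM.

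Within each lymphocyte type, Ccr7 differed between clusters. Among CD4 T cells, a cluster led by St8sia6 and Trat1 had 301 and 296 CPM, the main cluster 178 and 193 CPM, and a cluster led by S100a4 and Itgb1, genes of antigen-experienced cells, 67.4 and 90.5 CPM. Among follicular B cells the 4 clusters ran from 54.0 to 132 CPM in the PHZ library and from 47.0 to 120 CPM after bleeding. Of CD4 cells 67.1% and 66.5% had a Ccr7 UMI, and 17.7% and 18.1% did once each cell was thinned to 1000 non-haemoglobin UMIs. Haemoglobinised erythroid cells, which should lack the receptor, were at 0.320% and 0.902% after thinning, at median depths of 1262 and 1097 non-haemoglobin UMIs.

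Cxcr5 (chromosome 9, 44511787 to 44561877, minus strand), the receptor for the follicle chemokine Cxcl13, was a B cell gene in both libraries. Marginal zone B cells had 179 CPM (146 to 218) in the PHZ library and 192 CPM (177 to 208) in the bleeding library. Follicular B cells had 173 CPM (163 to 184) and 171 CPM (164 to 178), and the intervals of these 2 groups overlapped in both libraries. B1 or atypical B cells followed at 133 CPM in each. Germinal centre B cells had 58.0 CPM in the bleeding library, and B cell precursors, found in number only in the PHZ library, had 9.73 CPM from 4 UMIs in 72 cells.

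Among T cells, Cxcr5 was highest in regulatory cells, the Foxp3 group, with 37.1 CPM (21.6 to 59.4) in the PHZ library and 46.4 CPM (36.3 to 58.5) after bleeding. CD4 cells had 6.27 and 10.8 CPM, and most of these UMIs lay in the cluster led by S100a4 and Itgb1, at 20.7 CPM (8.95 to 40.9) from 8 UMIs and 43.6 CPM (31.0 to 59.5) from 39 UMIs. The intervals of that cluster and of regulatory cells overlapped in both libraries. Mature neutrophils also carried Cxcr5 UMIs, at 76.5 CPM (57.5 to 99.9) from 54 UMIs in 31 of 139 cells in the PHZ library and 57.8 CPM (32.3 to 95.3) from 15 UMIs in 8 of 65 cells in the bleeding library. Free RNA in the droplets, estimated from near-empty barcodes, would give 0.359 and 1.02 CPM there. All but 1 of these cells also had a Cxcr2 UMI (30 of 31 and 8 of 8). So did 134 of 139 and 65 of 65 of all mature neutrophils, so this overlap does not set the cells with Cxcr5 apart. The B cell gene Cd79a was found in 4 and 2 mature neutrophils, of which 1 and 0 had Cxcr5. Nearly all of it was in the mature cluster led by Il1b and Csf3r, at 120 and 61.5 CPM, with 51 of the 54 UMIs of the PHZ library and all 15 of the bleeding library, while immature neutrophils had 0 UMIs after PHZ and 6 after bleeding.

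S1pr1 (chromosome 3, 115710433 to 115715072, minus strand), the egress receptor, was high in mature B and T cells. Marginal zone B cells had 288 CPM (246 to 336) in the PHZ library and 300 CPM (281 to 319) in the bleeding library, and CD4 T cells 277 CPM (254 to 302) and 271 CPM (258 to 284). These neighbours overlapped in both libraries. Naive-like CD8 cells had 228 CPM in each, regulatory T cells 179 and 137, follicular B cells 149 and 137, and cytotoxic or innate-like T cells 131 and 148 CPM. Levels were lower in B cell precursors (77.8 CPM, PHZ library) and in NK cells (42.4 and 24.7 CPM), and germinal centre B cells had 21.0 CPM in the bleeding library.

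S1pr1 showed 2 further features within lymphocytes. A small innate-like T cell cluster led by Zbtb16 and Itga1 had 13.5 CPM in 17 cells and 36.7 CPM in 80 cells, against 180 and 196 CPM in the larger cytotoxic cluster. In marginal zone B cells, S1pr1 was high while Klf2, the transcription factor that is known to drive it, was at 44.0 and 31.0 CPM, against 473 and 505 CPM in follicular B cells and 427 and 474 CPM in CD4 cells. S1pr3, another receptor of the same lipid, was also found in marginal zone cells, at 96.7 and 122 CPM, against 2.74 and 3.10 CPM in follicular cells. Ccr7 and S1pr1 were each found in most CD4 and CD8 T cells. Ccr7 had a UMI in 159 of 237 CD4 cells in the PHZ library and 606 of 911 after bleeding, and S1pr1 in 196 and 723. In CD8 cells Ccr7 was found in 105 of 141 and 518 of 726, and S1pr1 in 115 and 589. Both had a UMI in 135 and 492 CD4 cells and in 88 and 427 CD8 cells. Whether this overlap exceeds that of any 2 genes so widely found was not tested.

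Cxcr3 (chromosome X, 101731535 to 101734269, minus strand), the receptor for the interferon-induced chemokines Cxcl9 and Cxcl10, marked effector lymphocytes. Cytotoxic or innate-like T cells had 93.9 CPM (73.8 to 118) in the PHZ library and 104 CPM (91.5 to 118) in the bleeding library, regulatory T cells 50.2 and 41.3 CPM, and NK cells 38.3 and 40.7 CPM. The Zbtb16-led innate-like cluster had the highest cluster level, 243 CPM (170 to 336) and 164 CPM (135 to 198). Among CD4 cells nearly all UMIs lay in the cluster led by S100a4 and Itgb1, at 82.9 and 87.1 CPM. The 2 other CD4 clusters together had 0 UMIs after PHZ and 1 after bleeding. Type 1 conventional dendritic cells had 22.8 and 17.1 CPM, from 13 UMIs in 22 cells and 15 UMIs in 31 cells.

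**Figure D2:**
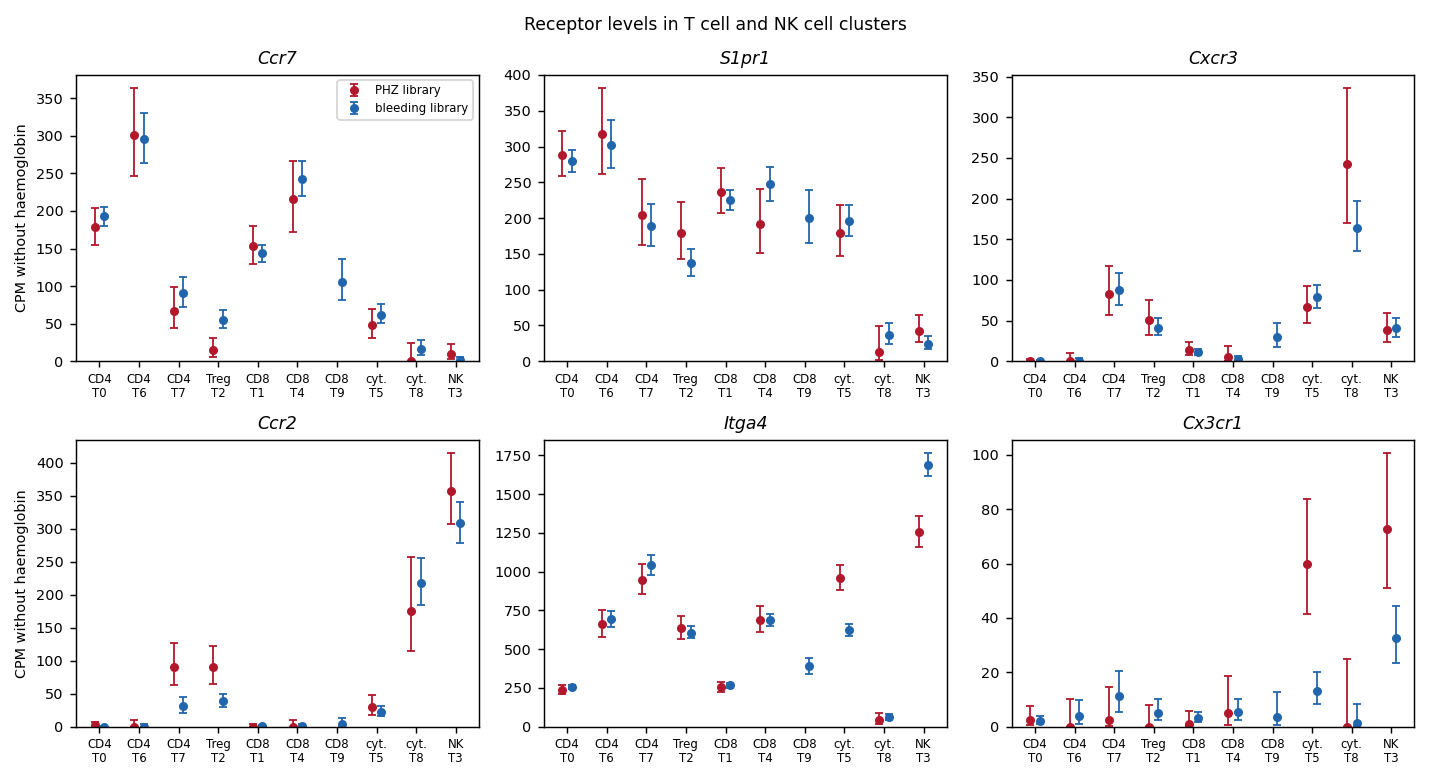
Ccr7, S1pr1, Cxcr3, Ccr2, Itga4 and Cx3cr1 in T cell and NK cell clusters, in CPM without haemoglobin with 95% Poisson intervals, PHZ library in red and bleeding library in blue, for clusters with at least 20 cells in a library except the PHZ point of cluster T8 (17 cells). The S100a4-led CD4 cluster T7 is low in Ccr7 (67.4 and 90.5 CPM) and high in Cxcr3 (82.9 and 87.1 CPM) and Itga4 (949 and 1041 CPM).

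Ccr2 (chromosome 9, 124101950 to 124113557, plus strand) lets monocytes leave the marrow toward Ccl2. Ly6c-high monocytes, the classical kind, had 1008 CPM (960 to 1056) from 1721 UMIs in 112 cells of the PHZ library and 843 CPM (780 to 910) from 657 UMIs in 53 cells of the bleeding library. The intervals did not overlap, and the PHZ level was 1.19 times the bleeding level (1.09 to 1.31). Ly6c-low monocytes, the patrolling kind, had 45.3 CPM (19 UMIs) and 30.9 CPM (6 UMIs). NK cells had 357 CPM (306 to 414) and 308 CPM (278 to 340), and 47 of 69 and 106 of 163 of them had a UMI. Immature and mature neutrophils had 0 UMIs in both libraries. A count of 0 in 139 and 65 mature cells allows a level of up to 5.23 and 14.2 CPM.

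Cx3cr1 (chromosome 9, 119901616 to 120069879, minus strand), the fractalkine receptor that Ly6c-low monocytes need for survival, had the reverse order of Ccr2 in monocytes. Ly6c-low cells had 763 CPM (682 to 852) and 751 CPM (634 to 883), and Ly6c-high cells 328 CPM (302 to 357) and 336 CPM (297 to 380). The libraries overlapped in both groups. In Ly6c-high monocytes the 2 receptors were found together in 87 of 112 cells in the PHZ library and 45 of 53 after bleeding. All 7 and 3 Ly6c-low cells with a Ccr2 UMI also had Cx3cr1, which was found in 50 of 51 and 27 of 27 Ly6c-low cells. Conventional dendritic cells without a subset name had 144 and 123 CPM, and haemoglobinised erythroid cells had 0 UMIs in both libraries.

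Cxcr2 (chromosome 1, 74153989 to 74161246, plus strand) and Cxcr4 (chromosome 1, 128588199 to 128592293, minus strand) pull neutrophils in opposite directions: Cxcr2 out of the marrow toward sites of inflammation, and Cxcr4 back to marrow and stroma. Both lie on chromosome 1, and both were higher in mature than in immature neutrophils here. Their upstream windows are shown because these 2 receptors have opposed roles in the same cells. RefSeq gives 250 to 11 bases before each start in GRCm38.p6, at chr1:74153744-74153983 on the plus strand for Cxcr2 and chr1:128592310-128592549 on the minus strand for Cxcr4. Capitals mark matches, on either strand, to GAGGAA, the core bound by the myeloid factor PU.1.
Cxcr2: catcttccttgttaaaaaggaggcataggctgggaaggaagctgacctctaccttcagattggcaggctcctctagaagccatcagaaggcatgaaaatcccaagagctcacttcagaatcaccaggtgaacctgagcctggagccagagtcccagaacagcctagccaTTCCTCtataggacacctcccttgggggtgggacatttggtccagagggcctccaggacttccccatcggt
Cxcr4: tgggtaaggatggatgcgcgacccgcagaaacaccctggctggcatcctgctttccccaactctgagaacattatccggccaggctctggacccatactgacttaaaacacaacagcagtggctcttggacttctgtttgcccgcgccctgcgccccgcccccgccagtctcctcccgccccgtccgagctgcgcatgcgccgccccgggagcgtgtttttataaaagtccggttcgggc
The Cxcr2 window held 1 match, read as TTCCTC on the strand shown, and the Cxcr4 window none. The same letters occur in 22.3% of 32851 mouse promoter windows of this length. Neither window held TTGCNNAA, letters bound by C/EBP factors, which occur in 9.29% of them. Of the 9 receptors, 6 were in the promoter table, and a match or its absence is a description of these letters only.

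Cxcr2 was higher in the immature neutrophil clusters than in precursors, and higher again in the mature ones. The order of maturation within the immature and within the mature clusters was not tested. In the PHZ library it had 39.2 CPM in precursors, 107 and 298 CPM in the 2 immature clusters, and 1349 and 2030 CPM in the 2 mature ones. In the bleeding library precursors had 29.0 CPM in 15 cells, the immature clusters 65.8 CPM in 13 cells and 234 CPM in 28, and the mature Il1b-led cluster 1801 CPM. Over all mature neutrophils the level was 1760 CPM (1664 to 1861) in 139 cells of the PHZ library and 1749 CPM (1592 to 1917) in 65 cells of the bleeding library, and the intervals overlapped. Thinned to 1000 UMIs, 81.3% and 78.1% of mature cells had a Cxcr2 UMI, against 0.213% and 0.225% of haemoglobinised erythroid cells. Monocytes, NK cells and CD4 T cells had 0 UMIs in both libraries.

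Cxcr4 was also higher at later stages, by a smaller factor, and its level in mature cells differed between the libraries. It was at 68.6 CPM in precursors of the PHZ library and 60.0 CPM in the 15 of the bleeding library, and at 110 CPM (93.5 to 129) and 97.4 CPM (74.8 to 125) in immature cells. Mature neutrophils had 221 CPM (188 to 259) and 397 CPM (324 to 481), which do not overlap. The PHZ level was 0.557 times the bleeding level (0.432 to 0.722), and 0.589 times (0.444 to 0.782) within the Il1b-led mature cluster that both libraries filled. The bound nearest 1 stayed inside 1.5-fold, the limit set here for calling a difference, and within all neutrophils together the ratio was 0.797 (0.671 to 0.949). Of mature neutrophils 70 of 139 and 49 of 65 had UMIs of both receptors.

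**Figure D3:**
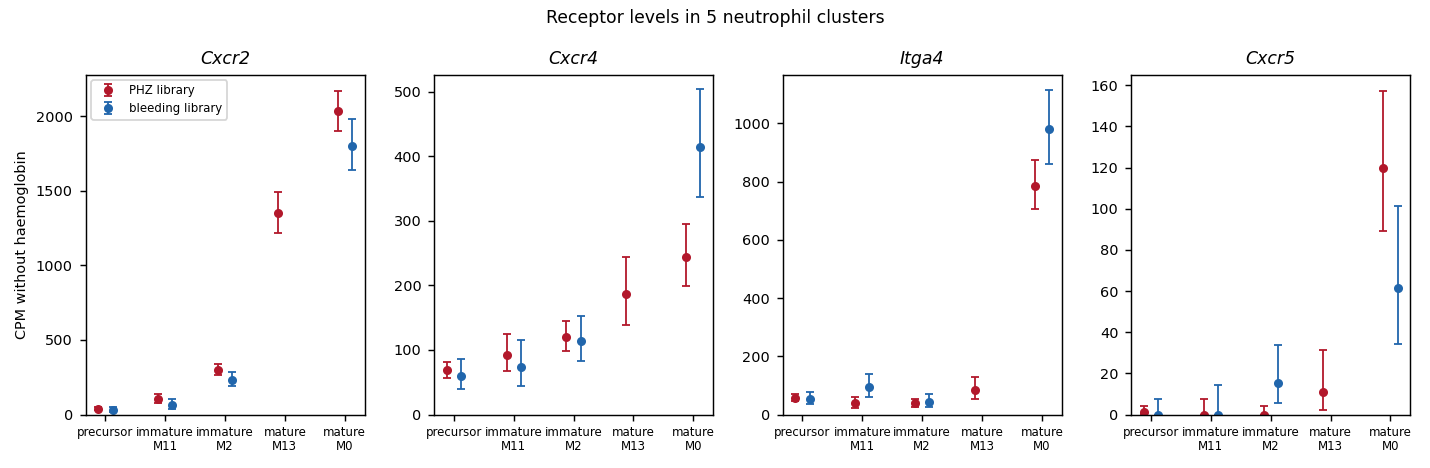
Cxcr2, Cxcr4, Itga4 and Cxcr5 in 5 neutrophil clusters ordered by name from precursor to immature to mature, in CPM without haemoglobin with 95% Poisson intervals, PHZ library in red and bleeding library in blue. The order of clusters with the same name was chosen, not measured. Mature cluster M13 has 36 cells after PHZ and 2 after bleeding, so only the former is drawn, and Itga4 there is 85.9 CPM against 786 and 981 CPM in cluster M0.

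Outside neutrophils, Cxcr4 was found in lymphoid, monocyte and erythroid groups. B cell precursors of the PHZ library had 119 CPM (88.2 to 158), and germinal centre B cells of the bleeding library 72.9 CPM (55.5 to 94.0). Follicular B cells had 29.3 and 35.7 CPM, and marginal zone B cells 1.76 CPM from 1 UMI and 4.30 CPM from 14 UMIs, the lowest of the B cell groups in both libraries. CD4 T cells had 3.66 and 9.26 CPM and naive-like CD8 cells 13.8 and 19.1 CPM. Ly6c-low monocytes had 52.5 and 30.9 CPM and Ly6c-high monocytes 29.9 and 29.5 CPM.

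Itga4 (chromosome 2, 79255426 to 79333123, plus strand) was present in nearly every group, at levels that differed widely. Ly6c-low monocytes were at the top in the PHZ library with 1753 CPM (1628 to 1884), and NK cells in the bleeding library with 1689 CPM (1618 to 1763). The other way round, NK cells had 1257 CPM (1160 to 1359) in the PHZ library and Ly6c-low monocytes 1512 CPM (1344 to 1695) after bleeding. The NK cell level was 0.744 times as high in the PHZ library as in the bleeding library (0.679 to 0.814), which was not past the limit. Ly6c-high monocytes had 763 and 787 CPM, follicular B cells 444 and 420, CD4 T cells 460 and 432, and CD8 T cells 384 and 386 CPM. Its partner subunits were found in the same cells: Itgb1 was at 531 and 557 CPM in NK cells, and Itgb7 at 279 and 262 CPM in CD4 T cells and 378 and 273 CPM in regulatory T cells.

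Itga4 split the lymphocyte clusters. The main CD4 cluster had 237 and 255 CPM, the cluster led by St8sia6 and Trat1 660 and 693 CPM, and the S100a4-led cluster 949 and 1041 CPM, with no overlap between clusters in either library. In the Zbtb16-led innate-like cluster it was at 40.4 and 61.6 CPM, against 960 and 620 CPM in the other large cytotoxic cluster. In neutrophils it was at 58.2 and 53.8 CPM in precursors and 38.5 and 63.4 CPM in immature cells, and at 509 and 936 CPM in mature cells.

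Of the 3 erythroid groups, haemoglobinised cells had the least Itga4 in both libraries. Early progenitors had 242 CPM (234 to 249) from 4188 UMIs in 317 cells of the PHZ library and 251 CPM (239 to 263) from 1805 UMIs in 138 cells of the bleeding library. The ratio was 0.963 (0.911 to 1.02). The smaller cluster of this group, E12 with 39 and 24 cells, had 38.0 and 66.7 CPM. Intermediate cells had 251 and 322 CPM, and haemoglobinised cells 28.1 CPM (20.4 to 37.9) and 29.7 CPM (21.6 to 39.7). In haemoglobinised cells free RNA alone would give 61.5 and 84.6 CPM by the estimate used here, which is above the observed levels and so too high there. The intermediate group pools clusters of very different levels, from 12.9 to 493 CPM in the PHZ library and from 17.6 to 898 CPM after bleeding. Its cluster E9, led by interferon-stimulated genes and with 90.1% and 90.6% haemoglobin UMIs, was at 16.3 and 17.6 CPM, below the haemoglobinised group. Clusters E8 and E10, at the top of the intermediate group, had 386 and 493 CPM in the PHZ library and 519 and 898 CPM after bleeding. In E10 the libraries did not overlap, with a ratio of 0.550 (0.464 to 0.651) that is past the 1.5-fold limit, and its cells were shallow, with a median of 3850 UMIs over both libraries.

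Cxcr4 was distributed in another way over the same clusters, whose order in maturation was not tested. It was at 18.9 CPM (16.9 to 21.0) and 19.5 CPM (16.4 to 23.0) in early progenitors. In cluster E6, a dividing cluster led by histone genes, it was at 83.7 CPM (72.9 to 95.6) and 118 CPM (96.2 to 143). Cluster E10 had 98.0 and 129 CPM. Cluster E7, between E10 and E6 in haemoglobin share, had 10.5 and 11.7 CPM. In E8 it was at 30.1 and 34.3 CPM, and in haemoglobinised cells at 4.58 CPM from 7 UMIs and 1.98 CPM from 3 UMIs. The highest levels thus lay in E6 and E10 in both libraries, and in E6 the intervals of the libraries just failed to overlap. The other 7 receptors were low in early progenitors, at no more than 2.31 CPM in the PHZ library (Cx3cr1) and 1.67 CPM in the bleeding library (S1pr1). Free RNA would give 0.219 CPM of the former and 1.62 CPM of the latter by the estimate, so this S1pr1 level was close to that of free RNA. The cluster richest in Kit, Gata2 and Cd34, with 20 and 18 cells and also high in Mpo, was not counted as erythroid; its Itga4 was at 409 and 367 CPM and its Cxcr4 at 35.8 and 26.7 CPM.

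**Figure D4:**
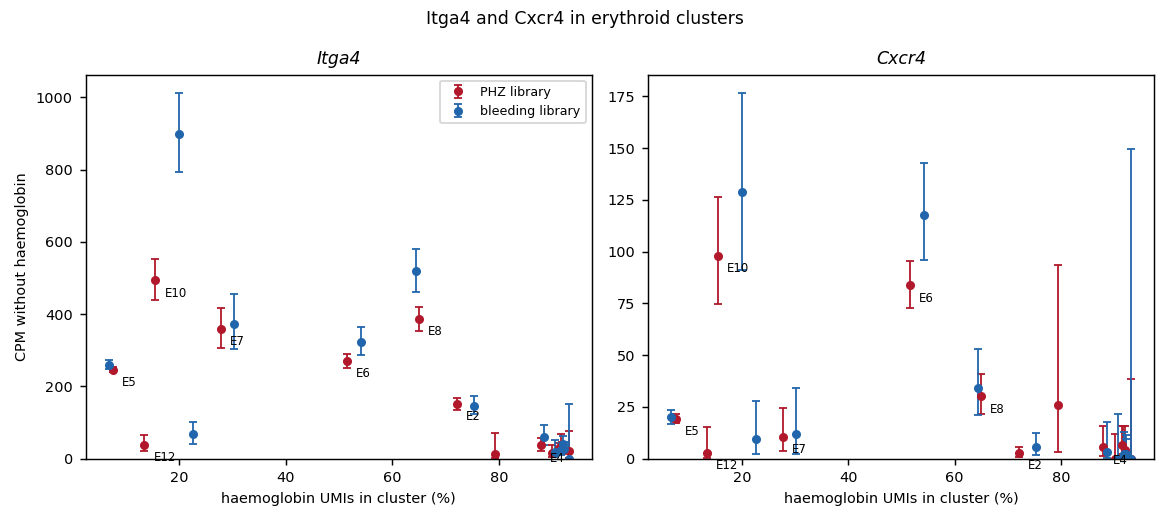
Itga4 and Cxcr4 in erythroid clusters (CPM without haemoglobin, 95% Poisson intervals) against the percentage of the cluster's UMIs that are of haemoglobin, PHZ library in red and bleeding library in blue. Cxcr4 is highest in clusters E6 and E10 and low in E7, while Itga4 is highest in E10 and E8 and low in the haemoglobin-rich clusters at the right.

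Between PHZ and bleeding, the receptors differed little in the cell class each is best known for. The ratio of the PHZ level to the bleeding level was 0.891 (0.815 to 0.973) for Ccr7 in all T cells, 1.01 (0.944 to 1.08) for S1pr1 in all T cells and 1.21 (0.997 to 1.46) for Cxcr3 in all T cells. It was 0.939 (0.884 to 0.998) for Cxcr5 in all B cells, 1.20 (1.10 to 1.32) for Ccr2 and 0.988 (0.878 to 1.11) for Cx3cr1 in all monocytes, and 1.03 (0.934 to 1.13) for Cxcr2 in all neutrophils. A ratio was called when the bound of its interval nearest 1 lay beyond 1.5-fold, and none of these was. The share of all genes called was 1.48% in all T cells, 3.11% in all B cells, 2.19% in all monocytes, 2.71% in all neutrophils and 2.35% in early progenitors.

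Over the 16 groups with at least 30 cells in each library, 101 of 144 receptor ratios had enough UMIs to be judged, and 6 were called higher and 9 lower in the PHZ library. Over all genes in those groups 2.26% of ratios were called, 0.932% higher and 1.32% lower. Of the 15 called receptor ratios, 8 were under 20 CPM in both libraries and lay in erythroid cells, immature neutrophils or unnamed dendritic cells. Ccr2 in CD4 T cells, given below, was also under 20 CPM in both libraries. In haemoglobinised erythroid cells, where 7.16% of all genes were called, Cxcr5 had 0 and 13 UMIs and S1pr1 1 and 13 UMIs, PHZ library first. The bleeding levels of 8.57 CPM for each were below the 12.6 and 18.8 CPM that free RNA would give by the estimate. The estimate was too high in these cells, since for Itga4 it was 61.5 and 84.6 CPM against 28.1 and 29.7 CPM observed. Ratios with free RNA subtracted are among the alternatives at the end, and the part of free RNA in these calls was not otherwise tested. In intermediate erythroid cells, with 6.93% of all genes called, the bleeding library again had more Cxcr5 (8 and 16 UMIs) and S1pr1 (6 and 18 UMIs). Its levels there were 4.66 and 5.25 CPM, against 3.70 and 5.51 CPM from free RNA by the same estimate. With free RNA subtracted, no S1pr1 level was left there after bleeding, so that ratio could not be given. In the same group the PHZ library had more Ccr2, with 16 UMIs against 0. With a minimum of 2000 UMIs per cell the Cxcr5 ratio there went from 0.208 to 0.654 (0.312 to 1.44) and Ccr2 to 1.36 (0.368 to 7.54), and neither was called. In immature neutrophils, with 3.4% called, Ccr7 had 1 and 12 UMIs and S1pr1 1 and 12. There, 11 of the 12 Ccr7 UMIs were in 3 cells, and markers of T cells summed to 26.9 CPM after PHZ and 338 CPM after bleeding, those of B cells to 91.4 and 607 CPM; their part in the result was not tested. The last of the 8 was Cxcr5 in unnamed dendritic cells, with 1 and 16 UMIs, where B cell markers summed to 187 and 625 CPM.

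The other 7 called ratios lay in dendritic cells, T cells and mature neutrophils, and 3 of them were of Ccr2. In conventional dendritic cells without a subset name, with 3.09% of all genes called, Ccr2 had 402 CPM (361 to 446) from 354 UMIs in 54 cells of the PHZ library and 141 CPM (122 to 162) from 200 UMIs in 113 cells of the bleeding library. The ratio was 2.84 (2.38 to 3.40). This group joins 2 clusters in different proportions. A cluster led by Cd209a, a gene of type 2 dendritic cells, held 39 of the 54 PHZ cells and 46 of the 113 bleeding cells, and the other cluster had 1 Ccr2 UMI in each library. Within the Cd209a-led cluster the levels were 538 and 320 CPM and the ratio was 1.68 (1.41 to 2.01), which is no longer past the limit. Type 1 dendritic cells, too few in the PHZ library for a ratio, had 251 CPM (211 to 296) in 22 cells and 111 CPM (89.6 to 135) in 31 cells.

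In T cells, Ccr2 was higher in the PHZ library in regulatory cells and in CD4 cells, from few cells. Regulatory T cells had 89.5 CPM (64.2 to 121) from 41 UMIs in 10 of 61 cells and 38.1 CPM (29.0 to 49.1) from 59 UMIs in 10 of 223 cells, a ratio of 2.35 (1.54 to 3.56). In this group 1.32% of all genes were called. CD4 cells, with 1.01% called, had 19.3 CPM from 37 UMIs in 9 of 237 cells and 4.25 CPM from 28 UMIs in 6 of 911 cells, a ratio of 4.55 (2.71 to 7.72). Nearly all of these UMIs were in the S100a4-led cluster, at 90.7 and 31.3 CPM, from 7 and 6 cells, with a ratio of 2.90 (1.71 to 4.95). At clustering resolution 2 such cells had no subset name, and the cells still named CD4 had 2 and 0 Ccr2 UMIs, while T cells without a subset name had 35 and 28 and a ratio of 2.88 (1.70 to 4.91). In cytotoxic T cells Ccr2 was at 53.8 and 80.7 CPM, and the ratio of 0.667 (0.467 to 0.934) pointed the other way without being called.

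Ccr7 in regulatory T cells was lower in the PHZ library. It had 15.3 CPM (6.14 to 31.5) from 7 UMIs in 6 of 61 cells, and 54.8 CPM (43.8 to 67.8) from 85 UMIs in 56 of 223 cells of the bleeding library, a ratio of 0.279 (0.109 to 0.599). The intervals of the 2 levels did not overlap. The share of cells with a UMI was 9.84% and 25.1%, but 3.28% and 4.93% after thinning, at which depth the intervals overlap. S1pr1 in the same cells was at 179 and 137 CPM, with a ratio of 1.30 (0.997 to 1.69). Regulatory cells were thus the 1 T cell group in which Ccr7 was called between the libraries. Its ratio in CD4 cells was 0.915 (0.810 to 1.03) and in CD8 cells 1.01 (0.876 to 1.16). In cytotoxic or innate-like T cells it was 0.701 (0.442 to 1.08). That ratio was also on the lower side, and its interval overlapped that of regulatory cells.

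Cytotoxic or innate-like T cells gave 2 calls, against 1.73% of all genes called. Itga4 had 904 CPM (839 to 972) from 722 UMIs in the PHZ library and 456 CPM (429 to 485) from 1041 UMIs after bleeding, a ratio of 1.98 (1.80 to 2.18). Cx3cr1 had 46.3 CPM (32.6 to 63.8) from 37 UMIs in 11 of 82 cells and 9.65 CPM (6.05 to 14.6) from 22 UMIs in 11 of 229 cells, a ratio of 4.80 (2.76 to 8.54). The group is a mixture of 3 clusters. In the largest, with 52 and 148 cells, Itga4 was at 960 and 620 CPM, a ratio of 1.55 (1.39 to 1.72) and no longer past the limit, and Cx3cr1 at 59.9 and 13.2 CPM, a ratio of 4.55 (2.56 to 8.24). The Zbtb16-led cluster, low in Itga4, held 17 of the 82 PHZ cells and 80 of the 229 bleeding cells. A cluster of 13 PHZ cells and 1 bleeding cell, led by Ccl4 and Ccl3 and with Lag3 and Pdcd1, had 2064 CPM of Itga4. NK cell markers summed to 1334 CPM in the PHZ cytotoxic T cells and 685 CPM in those of the bleeding library, and their part in these ratios was not tested. In NK cells, Cx3cr1 was also higher in the PHZ library, at 72.6 CPM (50.9 to 101) and 32.7 CPM (23.5 to 44.3), with a ratio of 2.22 (1.38 to 3.56) that was not called.

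Itga4 in mature neutrophils was the remaining call, in a group with 2.56% of all genes called. It had 509 CPM (458 to 564) from 359 UMIs in 139 cells of the PHZ library and 936 CPM (822 to 1061) from 243 UMIs in 65 cells of the bleeding library, a ratio of 0.544 (0.461 to 0.642). The PHZ group included cluster M13, with 36 cells led by Retnlg and Mmp8 and with Itga4 at 85.9 CPM, which had 2 cells in the bleeding library. Within the shared Il1b-led cluster the levels were 786 CPM (704 to 875) and 981 CPM (860 to 1113), which overlap slightly, and the ratio was 0.802 (0.677 to 0.951). In the same cluster Cxcr2 was at 2030 and 1801 CPM, with a ratio of 1.13.

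**Figure D5:**
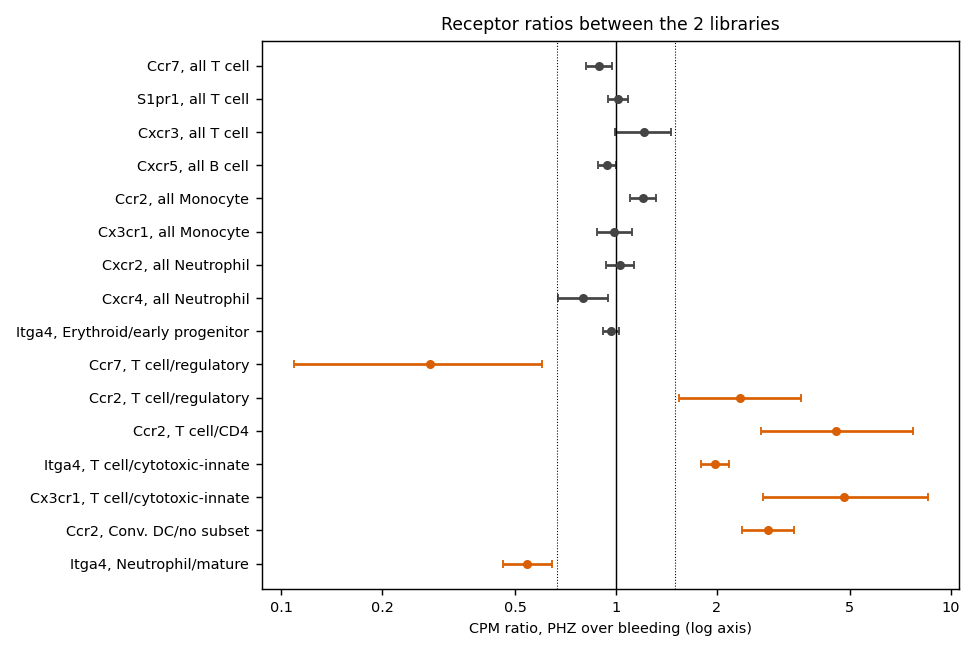
Ratio of the PHZ level to the bleeding level for each receptor in its best-known class (grey) and for the 7 called ratios named in the text (orange), on a log axis with exact 95% intervals for counting error; dotted lines mark 1.5-fold. The 9 grey ratios lie between 0.797 and 1.21, and the orange ones between 0.279 and 4.80.

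Across groups the receptors fell into sets that were high in the same cells. Pearson's r of log2(CPM + 1), over 42 points that are cell groups of the 2 libraries and share those libraries and their depth, was 0.880 for Ccr7 and S1pr1, 0.671 for Cxcr5 and S1pr1, 0.675 for Ccr2 and Cx3cr1 and 0.613 for Cxcr2 and Cxcr4. These are descriptions of where the genes are high. Among 12200 genes, the patterns most like that of Ccr7 were those of Rapgef4 (0.918), Fam169b (0.906) and Slamf6 (0.902), and most like that of S1pr1 those of Ablim1 (0.938), Gimap8 (0.929) and Ifi214 (0.925). For Cxcr5 they were Rftn2 (0.803), Gm15411 (0.803) and Ccr6 (0.784), a receptor of B cells. For Cxcr3 they were Cd226 (0.860), an activating receptor of T and NK cells, Ddx43 (0.851) and Ppm1j (0.838).

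Cxcr2 had the closest companions, Il1f9 (0.967), Asprv1 (0.962) and Nlrp12 (0.958), while Cxcr4 had the most distant, Atg101 (0.732), Ppp1r2 (0.729) and Triobp (0.721). Ccr2 was followed by Sulf2 (0.859), S100a4 (0.821) and 1700025G04Rik (0.816), and Cx3cr1 by Cyp4f16 (0.868), Rbpms (0.847) and Gm5086 (0.832). The genes most like Itga4 were the DNA sensor Aim2 (0.867), Rassf1 (0.861) and Cic (0.836). No gene was named for 2 receptors.

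The other genes of the pathway were taken from 5 lists of 67 genes in all. Over the same 16 groups, chemokine receptors beyond the 9 had 70 ratios judged, with 5 called higher and 5 lower in the PHZ library. Genes of the sphingosine 1-phosphate and oxysterol route had 110, with 0 higher and 5 lower, integrins and their partners 172, with 1 higher and 5 lower, and regulators of receptor level or signal 162, with 1 higher and 8 lower. Ligands and counter-receptors had 28, with 9 higher and 11 lower. In the order given, 14.3%, 4.55%, 3.49%, 5.56% and 71.4% of ratios were called, beside 2.26% over all genes in the 16 groups. The 71.4% is a share of only 28 ratios. A ratio needs a minimum of UMIs over both libraries, so a rare ligand could be judged only where a library held enough of its UMIs. The ligand share therefore cannot be compared with the 2.26%, and no response of ligands is read from it. The lower calls of the middle 3 lists were mostly in intermediate and haemoglobinised erythroid cells, where 6.93% and 7.16% of all genes were called and they sat at low levels; Klf2, for example, had 11.1 and 36.2 CPM in haemoglobinised cells.

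Ligands were rare in these libraries, which hold few stromal cells. Vcam1, the counter-receptor of Itga4, was at 4353 CPM in red pulp macrophages of the bleeding library (4141 UMIs in 133 cells), while the PHZ library had 13 such cells. Its UMIs were also spread through other cells after bleeding, with 272 UMIs in intermediate erythroid cells against 10 in the PHZ library, 35 against 0 in early progenitors and 30 against 0 in CD4 T cells, and 7 of the 11 lower calls in the list were of Vcam1. Fn1, fibronectin, was at 1344 and 1349 CPM in Ly6c-high monocytes. Cxcl13, the ligand of Cxcr5, had 421 UMIs in Ly6c-high monocytes of the PHZ library and 11 in those of the bleeding library, in both cases from 1 cell. Cxcl2, a ligand of Cxcr2, was at 83.6 and 11.6 CPM in mature neutrophils, from 59 and 3 UMIs, and 54 of the 59 UMIs were in 3 cells. Another 196 Cxcl2 UMIs came from 1 cell of the intermediate erythroid group in the PHZ library. Cxcl10 had 87 and 3 UMIs in Ly6c-high monocytes and Ccl2 14 and 0. Cxcl9 was at 125 and 44.5 CPM in conventional dendritic cells without a subset name, a ratio of 2.80.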

How the data were processed

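Droplet-based single-cell RNA sequencing (10x Chromium 3′ v3.1 chemistry) gave 1 library per treatment. The deposited matrices hold raw UMI counts per gene and barcode, 128130213 UMIs over 1608470 barcodes after PHZ and 145260780 over 1698351 after bleeding. Per the submitters' processing notes, they were made with Cell Ranger 7.0.0 on mm10, while the matrix header names version 4; the annotation release and the handling of introns are not given in the sources used here, and both could change a gene's count.

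Cells were barcodes of 1000 or more UMIs with no fewer than 300 genes and mitochondrial UMIs up to 10% (6445 and 9707), and the highest doublet scores removed at 0.8% per 1000 cells (332 and 753). Cells were clustered on 2000 variable genes and 30 principal components (15 neighbours, resolution 1, leidenalg 0.10.2), without the 9 receptors or the pathway genes. A cluster took a class from at least 3 markers among its 200 leading genes and a subset from at least 3 among its 50. Failing that, B3, T5, T9 and T11 took the subset of the first-round cluster they came from, with at least 4 of its markers above the mean of the other clusters, and E5 and E12 were early progenitors by 3 markers at 3 times that mean and a median of under 20% haemoglobin. In all, 201 cells with markers of another class were left out. Both libraries held the same barcode for 15 cells.

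UMIs were summed per group and library. Groups need 20 cells in a library for a level and 30 cells in each library and 10 UMIs in all for a ratio; a few levels from fewer cells are given with their number of cells. Poisson, Clopper-Pearson and conditional binomial 95% intervals cover counting error only, and UMIs from the same cell are not independent. The calculations were tested on simulated data (scipy 1.17.1). The 9 receptors, the pathway lists and the markers were chosen with earlier results of these data known. Beside the receptors, the text names the 3 genes most like each in pattern (at least 200 UMIs), and draws pathway genes from those with 50 CPM in some group, the 4 of each list with most UMIs and those with a called ratio. Some pathway genes counted in these lists are not reported here by name. Gene positions come from GENCODE M21, and Cxcl11 matched no row. Alternatives are given at the end.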

Additional observations from a re-analysis of the deposited data

How the results depend on the processing

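Ratios were recomputed with a lower UMI minimum per cell or one of 2000, 5% mitochondrial UMIs, no doublet removal, resolution 2, all UMIs as the denominator, the mean of per-cell CPM, without the 3 highest cells, and with free RNA subtracted. The 1 cluster with most UMIs of the gene was added after seeing the data. None of the 9 ratios in best-known classes was called, so a reversal of a call was not possible there. Of their 90 values, 84 stayed within counting error of the reported ratio. The others were Cxcr3 in T cells at 0.847 in 1 cluster, Cxcr4 in neutrophils at 0.662 as the mean of per-cell CPM and 0.589 in 1 cluster, and Itga4 in early progenitors at 1.04 with 2000 UMIs, 1.08 with 5% mitochondrial UMIs and 1.02 at resolution 2, on the other side of 1; the cause was not tested. For the 99 other ratios, 850 of 918 values stayed within that error and 68 moved. Reversal was judged only for the called ratios, of which 0 reversed, and a change of side among the rest was not counted. Another 72 values could not be given, for want of cells, of UMIs after bleeding or of a second cluster. Among these was Ccr2 in CD4 cells with 2000 UMIs, 5% mitochondrial UMIs or resolution 2, where T cells without a subset name held the Ccr2 UMIs and had ratios of 3.42, 3.73 and 2.88. Ccr2 in unnamed dendritic cells had none without doublet removal, nor had Ccr7 and S1pr1 in immature neutrophils with either UMI minimum. S1pr1 in intermediate erythroid cells had none with free RNA subtracted, since no level was left after bleeding. Ccr2 in intermediate erythroid cells, with 0 UMIs after bleeding, has no ratio. Over its alternatives Ccr2 ran from 1.68 to 3.04 in unnamed dendritic cells, from 2.90 to 7.86 in CD4 cells and from 2.30 to 3.40 in regulatory T cells, and Ccr7 in regulatory T cells from 0.150 to 0.283. Itga4 ran from 1.55 to 2.04 in cytotoxic T cells and from 0.513 to 0.802 in mature neutrophils, and Cx3cr1 in cytotoxic T cells from 4.52 to 6.04. Cxcr5 in intermediate erythroid cells ran from 0 to 0.654. The other 6 low-level calls in erythroid cells, immature neutrophils and unnamed dendritic cells lay between 0 and 0.287. Ccr2 in intermediate erythroid cells was called in none of the other sets of cells. Cxcr5 there was called only without doublet removal, and Cxcr5 in unnamed dendritic cells only at resolution 2. S1pr1 in haemoglobinised cells was not called with either UMI minimum, nor was Cxcr5 there without doublet removal. No paired analysis was possible because each treatment has 1 library. Depth limits receptors under about 10 CPM, where a group often holds fewer than 10 UMIs.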

Other observations

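Other chemokine receptors were found in several of these groups. Ccr1 was at 632 and 743 CPM in mature neutrophils (PHZ library first). Cxcr6 was at 258 and 257 CPM in cytotoxic or innate-like T cells. Ccr6 was at 133 and 154 CPM in follicular B cells and 144 and 110 CPM in marginal zone B cells, and Ackr3, a scavenger of the ligand of Cxcr4, at 52.8 and 35.3 CPM in marginal zone cells. Ackr1, the Duffy chemokine-binding receptor of red cells, was at 117 and 116 CPM in intermediate erythroid cells. In the bleeding library, Ccr3 was at 796 CPM in red pulp macrophages and Ccr10 at 64.5 CPM in plasma cells.

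Some of these differed between the libraries past the 1.5-fold limit. Ccr4 in regulatory T cells was at 72.0 and 21.9 CPM (33 and 34 UMIs), a ratio of 3.28, and Cxcr6 in CD4 T cells at 30.3 and 6.52 CPM (58 and 43 UMIs), a ratio of 4.65. Ccr9 in cytotoxic or innate-like T cells was at 6.26 and 68.0 CPM (5 and 155 UMIs). The share of all genes called was 1.32% in regulatory, 1.01% in CD4 and 1.73% in cytotoxic or innate-like T cells. The CD4 and cytotoxic groups pool clusters in proportions that differ between the libraries. The ratios of Cxcr6 and Ccr9 were not taken within those clusters.

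Genes that make, export or sense sphingosine 1-phosphate were spread over several lineages, with S1pr3 in marginal zone B cells as given above. The kinase Sphk1 was at 59.0 and 61.6 CPM in early erythroid progenitors, and the exporter of red cells and platelets, Mfsd2b, at 127 and 115 CPM in intermediate erythroid cells. S1pr5 was at 174 and 226 CPM in Ly6c-low monocytes and 129 and 116 CPM in NK cells, and S1pr4 at 131 and 86.5 CPM in immature neutrophils. S1pr2 was at 146 CPM in germinal centre B cells of the bleeding library, where Rgs13, a brake on chemokine receptor signals, was at 338 CPM. Gpr183, the oxysterol receptor, was at 243 and 262 CPM in follicular B cells.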
